A study of Mus musculus with 2 samples.

Results

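Peaks of open chromatin were examined at 10 genes of the growth plate feedback loop and of hedgehog signaling: Ihh, Pthlh, Pth1r, Ptch1, Smo, Gli1, Gli2, Gli3, Hhip and Sufu. The genes were chosen for their known roles, after earlier results of these data had been seen. A peak counted for a gene when it lay inside the gene or within 100 kb of it in the GENCODE mouse release 21 annotation of the mm10 genome. Overlapping peaks of both femur ends (1 bp or more) were merged into regions, and 74 of the 32388 merged autosomal regions lay at these genes, which are 10 of 20807 autosomal protein-coding genes. The peaks come from ATAC-seq, in which a transposase cuts accessible DNA, of proximal and of distal femoral growth zones of FVB mouse embryos (strain FVBNJ) at E15.5. No allele or agent distinguished the ends. Cartilage from both legs of littermates (a mean of 8 embryos) formed 1 pool per end, without the ossified shaft or the surrounding soft tissue, and collagenase released the cells. Each reaction used 50000 cells, and the pools held growth plate and overlying perichondrium, so that a site open in few cells and a site less open in each cell cannot be told apart. The 2 biological replicates of each end had been combined by the authors into 1 list of positions without height or score. The values below therefore have no replicate error, no test of the ends was possible, and 95% Wilson intervals cover counting error only.

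Indian hedgehog, encoded by Ihh, is secreted by prehypertrophic chondrocytes of the growth plate. It binds Patched 1, which relieves the inhibition of Smoothened, and the GLI transcription factors then change the expression of their targets, Ptch1, Gli1 and Hhip among them. Indian hedgehog also raises the production of parathyroid hormone-related protein (PTHrP, encoded by Pthlh) near the joint surface, and PTHrP acts on its receptor Pth1r in proliferating chondrocytes to delay their hypertrophy, which closes the loop. SUFU holds GLI proteins in check in the cytoplasm.

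Of the 74 regions, 58 held a peak of both ends, which is 78.4% (interval 67.7% to 86.2%) against 73% of all merged regions. The proximal list alone gave 6 regions (8.11%, interval 3.77% to 16.6%, against 14.1% of all regions) and the distal list alone gave 10 (13.5%, interval 7.51% to 23.1%, against 12.9%). Each of the 3 shares over all regions lay within the interval of the members' share. The regions contained 64 proximal and 69 distal peaks. Every one of the 10 regions within 1 kb of a start site of a member was found in both ends. So were 11 of 14 intronic regions, 15 of 21 upstream and 22 of 29 downstream regions. The 10 regions near a start site were not sorted by exon. Apart from them, 0 regions were centred on a coding exon or an untranslated region of a member. Counted by the start sites of any protein-coding gene, 26 of 28 regions within 1 kb of one were shared (92.9%, against 89.4% of all such regions), and so were 32 of 46 elsewhere (69.6%, against 62.7%).

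**Figure D1:**
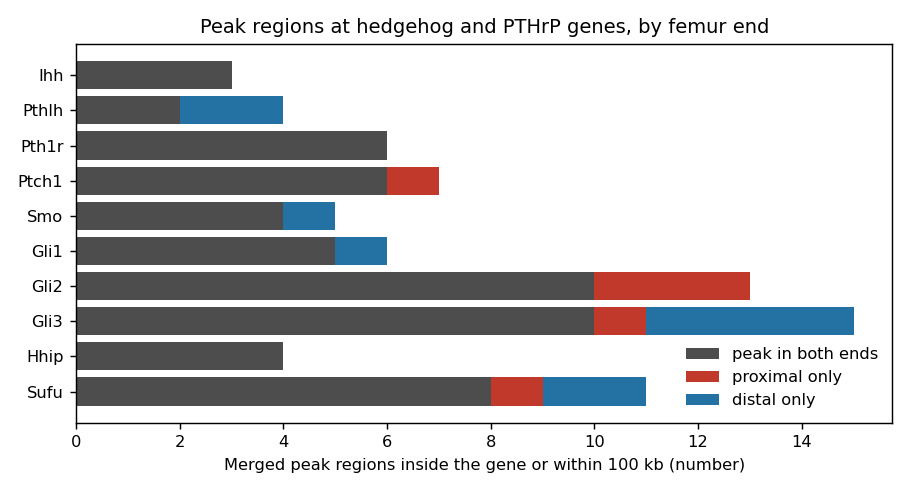
Number of merged peak regions inside each gene or within 100 kb of it (horizontal axis), divided by whether the region held a peak of both femur ends, of the proximal end only or of the distal end only. Every gene has at least 2 shared regions, and Ihh, Pth1r and Hhip have no region of 1 end only. Of all protein-coding genes with 3 or more regions, 27.8% have none of 1 end only.

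A promoter peak, with its nearest edge within 1 kb of any annotated start site of the gene, was present in both ends for 8 of the 10 members, against 55% of all autosomal protein-coding genes. The exceptions were Ihh and Pth1r, which had none in either end. No member had a promoter peak in 1 end alone. At Ptch1 and Gli1 the peak lay at an internal start site, with none within 1 kb of the first base of the gene. Of all genes with a promoter peak, 7.2% were like them in this.

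Ihh, the ligand of the loop, spans chr1:74945315-74951672 on the minus strand and had 3 regions, all shared and none inside the gene. The nearest one (chr1:74964493-74965286) was centred 13218 bp upstream of the first base, and its near edge was 12821 bp away. This region was 718 bp wide in the proximal list and 785 bp in the distal list, and it was the only 1 of the 3 for which Ihh was the closest protein-coding start site. A second region lay 73463 bp upstream in the body of Nhej1, a gene of DNA end joining (chr1:75024852-75025417, 504 bp and 566 bp). The third was the promoter of Cdk5r2, 96885 bp downstream. The 3 regions place Ihh at the 27.1 percentile of all genes by number. The 200 bases at the centre of the nearest region (chr1:74964790-74964989, mm10, minus strand, which is the strand of Ihh) are shown since no other open region was close to this gene:
Ihh upstream region: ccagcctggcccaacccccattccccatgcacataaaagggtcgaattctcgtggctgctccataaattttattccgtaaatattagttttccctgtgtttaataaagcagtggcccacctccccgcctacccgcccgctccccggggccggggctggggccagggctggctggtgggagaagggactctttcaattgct
All letters are in lower case because none of the searched consensus sequences, described further on, was found in them.

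Pthlh, which encodes the other secreted signal of the loop, PTHrP, spans chr6:147252101-147264183 on the minus strand. It had 2 peaks in the proximal femur and 4 in the distal femur. A shared region covered its start sites (chr6:147263262-147264453) and another shared region lay 4416 bp upstream (chr6:147268395-147268803, 355 bp in the proximal list and 409 bp in the distal list). The other 2 regions were found in the distal list alone. One was centred 31142 bp downstream of the first base and was 1092 bp wide (chr6:147232495-147233586), with the nearest proximal peak 29676 bp away. The other, with the start site of Klhl42 as the closest, was centred 111461 bp downstream and was 531 bp wide (chr6:147152457-147152987). Its gap to the nearest proximal peak, 60326 bp, was the longest of the 16 regions of 1 end. No region at Pthlh was in the proximal list alone. Of all autosomal protein-coding genes, 7.37% had at least 2 distal-only regions and no proximal-only region in the window. This pattern was taken from Pthlh itself, and the share also counts genes with too few regions to show it. The widths that follow were chosen for comparison after they were seen. Of the distal-only regions of the whole genome, 72 of 4194 (1.72%) were at least as wide as the one of 1092 bp. At the promoter the distal peak was also wider, 1173 bp against 849 bp, a ratio of 1.38 that 3.37% of all shared regions reached. The strength of these peaks in each replicate was not analysed here.

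Pth1r, the receptor of PTHrP, spans chr9:110722085-110747145 on the minus strand and had 6 regions, all shared. None lay within 1 kb of any of its 6 annotated start sites. The closest was the single intronic region (chr9:110732441-110733081), whose edge was 9638 bp from the nearest start site and 14064 bp from the first base. It measured 641 bp in the proximal list and 592 bp in the distal list. A region 34534 bp upstream (chr9:110781171-110782186) measured 997 bp and 1013 bp. Both lay closest to the start site of Myl3, a myosin light chain gene. The remaining 4 regions were promoters of neighbours, of Nradd, Nbeal2 and, at 2 of its start sites, Ccdc12. For 0 of the 6 regions was the closest protein-coding start site one of Pth1r. The centre of the intronic region, the only open stretch inside the receptor gene, reads as follows (chr9:110732661-110732860, mm10, minus strand, no searched consensus found):
Pth1r intronic region: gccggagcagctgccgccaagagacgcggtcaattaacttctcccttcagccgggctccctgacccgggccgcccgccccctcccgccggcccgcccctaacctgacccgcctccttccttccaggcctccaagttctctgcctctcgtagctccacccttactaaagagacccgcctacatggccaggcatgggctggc

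Ptch1, which encodes the hedgehog receptor and is itself a classic hedgehog target, spans chr13:63508328-63573598 on the minus strand. It had 7 regions, with 7 proximal and 6 distal peaks, and 6 of the regions were shared. The most upstream start site, that of transcript Ptch1-205, had no peak within 5 kb: the nearest region edge was 5247 bp downstream of it. The 2 regions inside the gene lay between this first base and a group of internal start sites, as the plot of Ptch1 peaks shows. The region counted as the promoter (chr13:63566021-63566624) was 604 bp wide in the proximal list and 523 bp in the distal list, and the distal peak lay within the proximal one. Its edge was 286 bp upstream of the start site of Ptch1-201, which is 7863 bp downstream of the first base, and 747 bp upstream of that of Ptch1-203. For transcripts that begin at the first base it is intronic. The second region (chr13:63567706-63568351) was centred 5569 bp downstream of the first base. It was intronic in Ptch1, within 1 kb of the start site of the noncoding gene A930032L01Rik, and 599 bp and 620 bp wide in the proximal and distal lists.

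**Figure D2:**
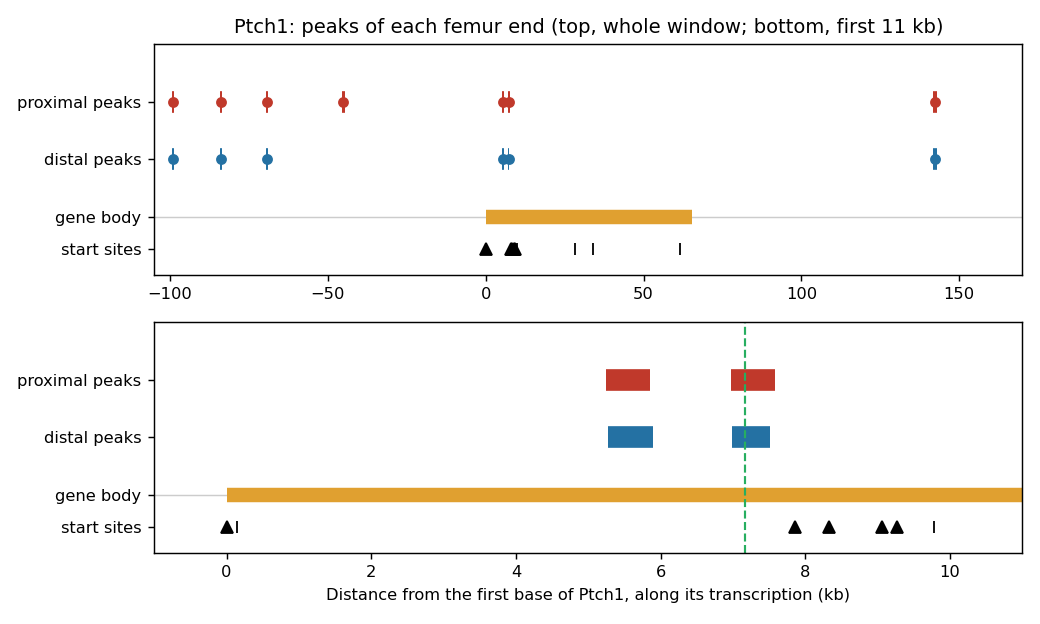
Peaks of the proximal and distal lists at Ptch1 by distance from the first base of the gene in kb, positive along transcription, over the whole window (top, peaks also marked by dots) and the first 11 kb (bottom). Triangles are start sites of protein-coding transcripts, short bars those of other transcripts, and the dashed line is the exact match to the GLI consensus. The 2 intragenic regions occur in both ends and lie between the first base and the start site 7863 bp downstream of it.

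Upstream of Ptch1 lay 4 regions, and the closest protein-coding start site of each was that of Ptch1. Those centred 69318 bp, 83830 bp and 99053 bp upstream were shared, with proximal and distal widths of 670 bp and 626 bp, 726 bp and 653 bp, and 519 bp and 608 bp. The one nearest to the gene, 45041 bp upstream (chr13:63618298-63618980), was in the proximal list alone. It was 683 bp wide, and the nearest distal peak was 23597 bp away. A single region lay downstream, at the promoter of Fancc, 142198 bp from the first base and shared. Ptch1 was at the 70.4 percentile of all genes by number of regions. Counting only the 5 regions at no protein-coding start site of any gene, it was at the 88.8 percentile.

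Smo, which encodes the signal transducer that Patched 1 inhibits, spans chr6:29735503-29761365 on the plus strand and had 5 regions, with 4 proximal and 5 distal peaks. Its promoter region (chr6:29735283-29736574) measured 1290 bp in the proximal list and 1136 bp in the distal list. A region 16382 bp upstream was in the distal list alone (chr6:29718836-29719406, 571 bp wide), and the nearest proximal peak was 15877 bp away. The promoters of the neighbours Tspan33 and Ahcyl2 made up a shared region on each side. The intronic region of Smo (chr6:29747676-29749151) was the widest of all 74, at 1476 bp, with peaks of 1404 bp and 1456 bp. Of its bases 99.7% were marked as repeats, and 56.7% of its 36-base words occurred at more than 1 place in the genome, up to 1050 times. In the other 73 regions under 10% of the words did. The effect of reads from such copies on this peak was not tested.

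Gli1, which encodes a GLI activator whose expression is commonly read as a sign of hedgehog signaling, spans chr10:127329882-127341974 on the minus strand and had 6 regions. A single one was inside the gene (chr10:127338862-127340201), covering the start site of Gli1-202, 2015 bp downstream of the first base. It held 1 proximal peak of 1332 bp and 2 distal peaks, and its edge was 1773 bp from the first base. The other 5 were promoter regions of neighbouring genes: Dctn2, Ddit3 and Mars downstream, and R3hdm2 upstream at 2 of its start sites. The farther region of R3hdm2, 80254 bp upstream of Gli1 and 379 bp wide, was in the distal list alone. Gli1 had 0 regions away from protein-coding start sites, as did 24.3% of all genes.

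Gli2 and Gli3 encode the GLI proteins through which most of the activation and of the repression of targets run, and they had the most regions of the 10 genes. Gli2 (chr1:118834132-119053619, minus strand) had 13 regions and Gli3 (chr13:15463235-15730026, plus strand) had 15, at the 96.7 and 98.4 percentiles of all genes. They are also the longest members, 219488 bp and 266792 bp. Per 100 kb of gene and flank the values were 3.10 and 3.21 regions, at the 73.7 and 75.3 percentiles, so the number is in part that of the length searched. The pair held 28 of the 74 regions, and 8 of the 16 regions of 1 end.

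The regions of Gli2 were mostly inside the gene. They comprised 8 intronic regions, 2 promoter regions and 3 downstream regions. The promoter at the first base (chr1:119053126-119054431) measured 1052 bp in the proximal list and 1306 bp in the distal list. The other one lay at the start site of the noncoding transcript Gli2-202, 71031 bp into the gene (chr1:118982196-118983238, 1043 bp and 938 bp). The 3 regions of 1 end were all proximal and narrow, at 337 bp, 340 bp and 388 bp, of which 2 were intronic, and the nearest distal peaks were 17020 bp, 10567 bp and 20987 bp away. Of all genes, 1.21% had at least 3 proximal-only regions and no distal-only one. This threshold was taken from Gli2 itself, and the share is not adjusted for gene length.

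At Gli3 the regions lay mostly outside the gene, with 4 upstream, 8 downstream, 2 intronic and 1 at the promoter (chr13:15462778-15464032), which measured 1245 bp and 1247 bp in the proximal and distal lists. Its regions of 1 end were 4 distal and 1 proximal. The distal ones were 466 bp wide at 12088 bp upstream, 330 bp in an intron, and 294 bp and 231 bp at 299967 bp and 339368 bp downstream of the first base. The proximal one was 711 bp wide at 323107 bp downstream. The gaps between them and the other end's closest peak were 895 bp to 25908 bp. Of all genes, 0.855% had at least 4 distal-only regions. This threshold was taken from Gli3 itself, and the share is not adjusted for gene length. The 8 downstream regions lay in the interval between Gli3 and Inhba. Their edges were 11369 bp to 76621 bp from the body of Gli3. The closest protein-coding start site was that of Inhba, at 204806 bp to 269938 bp. Of the 8 regions, 3 lay within 1 kb of the start of a noncoding gene, 4933412O06Rik or A530046M15Rik.

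**Figure D3:**
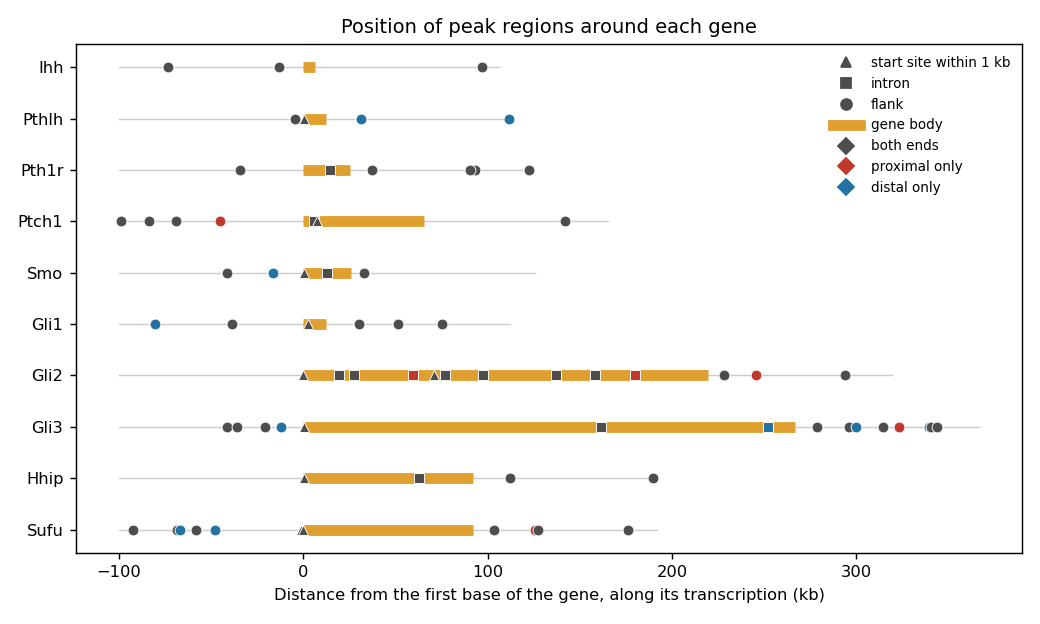
Centres of the merged regions around each gene, by distance from its first base in kb, positive along transcription. Bars are gene bodies, grey lines the windows searched, marker shape gives the place and color the femur end, and the regions of Gli2 are seen mainly inside its body while those of Gli3 cluster on its flanks.

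Among the inhibitors, Hhip, which encodes a membrane protein that binds hedgehog ligands, spans chr8:79965851-80058006 on the minus strand and had 4 regions, all shared. Its promoter region (chr8:80057217-80058493) measured 1254 bp and 1245 bp in the proximal and distal lists, and the intronic region (chr8:79994902-79995674) 763 bp and 684 bp. The other 2 were 112244 bp and 189471 bp downstream of the first base. Sufu spans chr19:46396896-46488804 on the plus strand and had 11 regions, of which 8 were shared. Its promoter region (chr19:46396640-46397273, 608 bp and 602 bp) was also that of the neighbour Actr1a, and a second one, whose edge was 944 bp upstream of a start site, was at Actr1a as well. Of its 9 flanking regions 5 were promoters of other genes, namely Nfkb2, Fbxl15 with Psd, Cuedc2, 2310034G01Rik, and Arl3 with Sfxn2. The regions of 1 end were 2 distal ones, of 297 bp and 785 bp, and 1 proximal one of 368 bp. The proximal one ended 823 bp from the nearest distal peak, the shortest gap of all regions of 1 end. For 1 of the 11 regions the closest protein-coding start site was one of Sufu.

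Of the 50 flanking regions of the 10 genes, 18 were the promoter of another protein-coding gene, and 16 of these were shared. For 36 of all 74 regions the closest protein-coding start site was that of a member. All genes had a median of 5 regions in the window, and the members a median of 6. In the plot of all genes, 7 of the members lie between 3 and 7 regions.

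**Figure D4:**
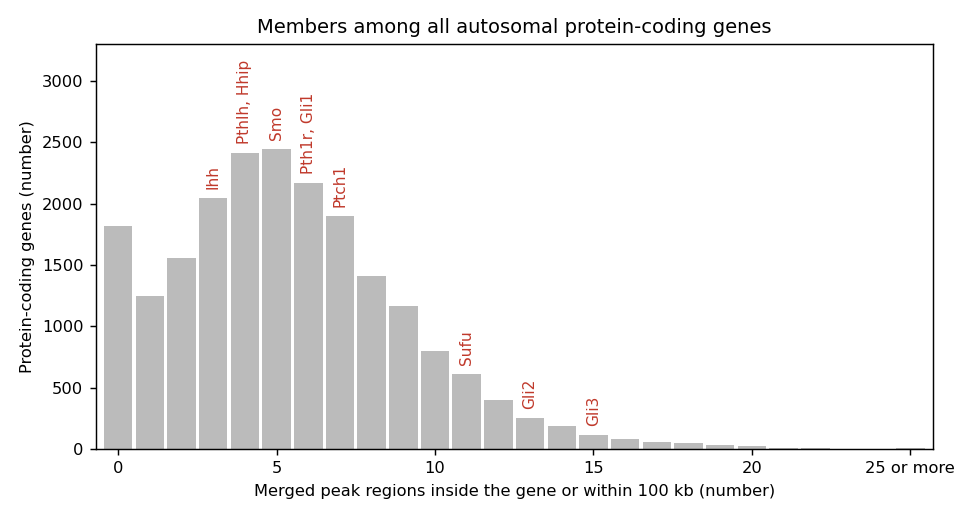
Number of autosomal protein-coding genes (vertical axis) by number of merged regions inside the gene or within 100 kb, with the bars of the 10 members labelled and genes with 25 or more pooled in the last bar. Ihh, with 3, lies below the median of 5, and Sufu, Gli2 and Gli3, with 11, 13 and 15, lie in the upper tail.

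The 16 regions of 1 end had a median width of 383.5 bp, against 811 bp for the 58 shared ones. Over all regions the medians were 504 bp and 812 bp. The members' regions of 1 end lay a median of 13222 bp from the closest peak in the other list, and 14 of the 16 were at no protein-coding start site. Over all regions too, those at no protein-coding start site were less often shared (62.7%) than those at one (89.4%). At the 57 shared regions with a single peak per end, the overlap covered a median of 87.8% of the merged region (88.7% over all such regions), and the distal width divided by the proximal width had a median of 0.990 (0.981 over all). This ratio ranged from 0.694 at a region 35983 bp upstream of Gli3 to 1.38 at the Pthlh promoter.

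**Figure D5:**
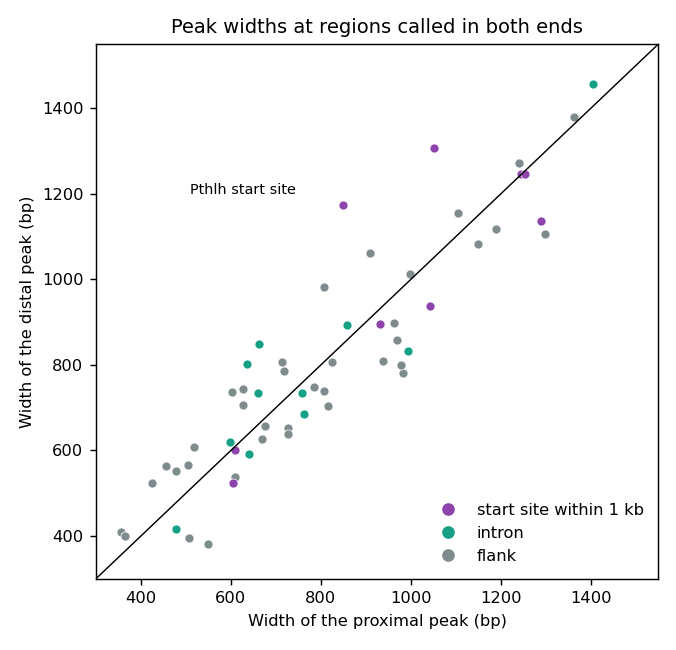
Width in bp of the proximal peak (horizontal axis) and the distal peak (vertical axis) at the 57 member regions with 1 peak per end, colored by place, with a line of equal width. The points lie along the line, and the Pthlh promoter, at 849 bp and 1173 bp, is the farthest above it as a ratio.

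The regions were searched on both strands for the consensus TGGGTGGTC of the GLI proteins. It was present in 2 of the 74 regions (2.70%, interval 0.744% to 9.33%), against 0.741% of all merged regions. One was the promoter region of Ptch1, where the match lay at chr13:63566435-63566443, 704 bp upstream of the start site of Ptch1-201. The other was the distal-only region upstream of Smo, with the match at chr6:29719073-29719081, 44 bp from the centre of the region. With up to 1 mismatch allowed in the 300 bp around the centre, 6 regions matched (8.11%, against 6.67% of all regions). Binding was not measured, and a match only says that the letters are there. The Ptch1 promoter region is given at length because it joined an open region of both ends to an exact match (chr13:63566289-63566588, mm10, minus strand, the match in capitals):
Ptch1 promoter region: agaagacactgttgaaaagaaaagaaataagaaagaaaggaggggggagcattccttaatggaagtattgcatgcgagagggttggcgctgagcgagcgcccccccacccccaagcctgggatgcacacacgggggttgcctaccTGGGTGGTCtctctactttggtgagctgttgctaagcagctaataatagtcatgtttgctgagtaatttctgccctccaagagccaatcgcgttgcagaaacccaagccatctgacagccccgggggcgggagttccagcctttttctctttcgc

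Searched over whole regions with up to 1 mismatch, 15 regions held a match (20.3%, interval 12.7% to 30.8%), against 16.9% of all regions. They held 20 matches, 2 of them exact. Printed here are the exact ones and the 8 with 1 mismatch that lay in a promoter region of a member or, for Ihh and Pth1r, in the region closest to a start site, a choice made after the matches were seen. The 10 others with 1 mismatch lay elsewhere at Pthlh, Pth1r, Ptch1, Gli2 and Gli3. Each is shown with 10 bases on either side and the 9 letters in capitals, and a change is written as the consensus base, its position counted from 1 at the 5′ end of the consensus, and the base found.
Ptch1 promoter, shared, exact: gttgcctaccTGGGTGGTCtctctacttt
Smo upstream, distal only, exact: ctctaccacaTGGGTGGTCcccaccatgt
Ihh upstream, shared, G4C: ctgcgctagcTGGCTGGTCcctagctgac
Ihh upstream, shared, C9G: acccctgagcTGGGTGGTGtttgagaatc
Gli1 internal start site, shared, G7A: gccggcgcggTGGGTGATCccgggatgct
Gli1 internal start site, shared, T5A: aatgtcgagcTGGGAGGTCttggatgcgg
Gli1 internal start site, shared, T8G: ggcggcgactTGGGTGGGCcgagaaggca
Gli2 internal start site, shared, T5A: cagtcgtgggTGGGAGGTCctaggatgtt
Gli2 first start site, shared, G6C: gagtggcgtcTGGGTCGTCaccccccacc
Sufu upstream promoter region, shared, G4C: cggaaggcgaTGGCTGGTCcaccggtgaa
The Gli1 region held 3 such matches, 522 bp and 373 bp downstream and 92 bp upstream of the start site of Gli1-202. The matches in the Gli2 promoter regions lay 589 bp upstream of the start site of Gli2-202 and 338 bp upstream of the first base.

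Consensus letters of other factor families of cartilage occurred about as often as in all regions. TGANTCA, the AP-1 consensus, was in 28 regions (37.8%, interval 27.6% to 49.2%), against 40.9% of all regions. The SOX letters ACAATG were in 11 (14.9%, against 19.9%) and ACAAAG in 23 (31.1%, against 37.1%). TGTGGTT, of the RUNX factors, was in 10 (13.5%, against 14.1%), and the CTCF consensus in 3 (4.05%, against 4.69%). The words were searched separately, and the letters of 1 match may be part of another. The region with the most AP-1 matches, 4, was the shared one farthest downstream of Gli3 (chr13:15806647-15807443). All 3 proximal-only regions of Gli2 held at least 1 AP-1 match, while those of Ptch1, Gli3 and Sufu held 0. All of these proximal-only regions lay at no protein-coding start site, and 54.1% of all such regions held a match.

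Other genes of these pathways were read from lists of known genes. Of 26 further hedgehog genes, 19 had a promoter peak in both ends, 3 in the distal list alone (Disp1, which releases hedgehog from cells, Evc and Mgrn1) and 4 in neither: Shh and Dhh, the other hedgehog ligands, and Scube2 and Scube3. Of 16 genes of PTHrP signaling and hypertrophy, 12 had one in both ends and 4 in neither, namely Pth, Adcy6, Runx2 and Ccnd1. Of 18 genes known to respond to hedgehog, 14 had one in both ends, Foxf1 in the distal list alone, Spp1 (osteopontin) in the proximal list alone, and Foxf2 and Hsd11b1 in neither. Nkx3-2, which had a peak in both ends, stands in both of the last lists. The shares were 73.1%, 75% and 77.8%, with 80% for the members and 55% for all genes.

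The labelled cell type was checked by promoter peaks of marker genes. Both ends had one at 7 of 11 chondrocyte markers, Sox9, Sox6, Col2a1, Col9a1, Acan, Matn3 and Hapln1, while Sox5 had one in the proximal list alone, Col11a2 and Comp in the distal list alone, and Matn1 in neither. Of hypertrophic markers 1 of 4 had one (Mef2c, but not Col10a1, Runx2 or Ihh), and of osteoblast and perichondrium markers 1 of 5 (Twist1). Blood markers had 0 of 4, muscle markers 0 of 5, endothelial markers 1 of 4 in both ends (Kdr, and Tek in the distal list alone) and epithelial markers 1 of 4 (Epcam). These counts stand beside the 55% of all genes with a promoter peak in both ends and the 40.9% with none, and the lists are short. The chondrocyte share, 63.6%, was near that of all genes.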

How the data were processed

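ATAC-seq peaks of proximal and distal E15.5 femoral growth zones were used, 1 list per end (28257 and 27958 peaks). The deposited values are positions, not a score: the authors aligned reads to mm10 (Bowtie2 2.2.8 and MACS2 2.1.1 per the submitters' processing notes), combined 2 replicates by IDR under 0.05, and gave no height, so the read depth behind each peak is not known here, and the study's read totals per library were not used. Peaks were merged from 1 bp of overlap, read as BED (first base 0) and written from 1. Genes came from GENCODE release 21, sequence from RefSeq GRCm38. A promoter lay within 1 kb of a start site, and other places were set by the region's centre. Copies of 36-base words were counted over 22 chromosomes, the mitochondrial genome among them. Python 3.11.15, pysam 0.24.0 and samtools 1.23.1 were used, and merging and placing were tested on simulated peaks. No test was run, since each end has 1 list. Named genes were the members, listed genes without a promoter peak in both ends, and neighbours whose promoter, or start site closest to a region of 1 end, lay at a member. Markers were named from a list of their own, and Nhej1, Myl3, Nkx3-2 and noncoding genes were named after their values were seen. Members and lists were chosen with earlier results of these data known. Gata1, on chromosome X, was left out because the lists cover autosomes. Results for 1 listed gene are not reported on their own here.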

Additional observations from a re-analysis of the deposited data

How the results depend on the processing

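With 1 list per end, no result could be given with a replicate left out, and depth limits what a missing peak shows. No paired analysis was possible because the peaks of an end's replicates had been combined into 1 list. Counts followed the window. The 74 regions became 112 within 200 kb, 27 within 10 kb, 36 with a member's start site as the closest and 44 among peaks of at least the median width. The 16 regions of 1 end became 27, 3 and 7 under the first 3 of these. The share of shared regions rose to 88.9% within 10 kb and stayed inside its interval otherwise. The 10 promoter regions of the members, all shared, remained among the 27 within 10 kb. The share around all genes within 10 kb was not counted. Ptch1 had 13 regions within 200 kb, 3 within 50 kb, and 2 within 10 kb or among wide peaks. The listed genes with a promoter peak in both ends fell from 44 to 27 of 59 among wide peaks. Members with one numbered 6 by the first base alone (without Ptch1 and Gli1) and 7 among wide peaks (without Ptch1), and Ihh and Pth1r had none under any definition. The share of all genes was not counted under these settings, so these numbers cannot be set against that of all genes. For all of the numbers of regions and genes above, fewer or more bases or peaks were counted by construction. The share of regions with the GLI letters, 2.70%, became 20.3% when whole regions were searched with up to 1 mismatch, a looser search by construction that was added after seeing the data. Leaving out the repeat-rich region of Smo, chosen after seeing the data, gave 73 regions, of which 78.1% were shared.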

Other observations

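Some pathway genes without a promoter peak still had open regions nearby. Most genes do, with a median of 5 in the window over all genes, and promoters of neighbours were not set apart in these counts. Runx2, a transcription factor of hypertrophy and bone, had 6 regions in its window, all inside the gene, and 3 of them were shared. Shh had 3 regions within 100 kb, of which 0 were shared, and Dhh had 9, of which 8 were shared. Of all merged regions 73% were shared. Hsd11b1, an enzyme of glucocorticoid activation, had 9 regions, of which 8 were shared. At other listed genes without a promoter peak, the shared regions were 4 of 5 (Scube2), 4 of 7 (Scube3) and 2 of 3 (Pth). They were 5 of 6 at Adcy6, 3 of 5 at Ccnd1 and 2 of 2 at Foxf2. Col10a1, the collagen of hypertrophic cartilage, had 6 regions around it, none inside the gene and all shared.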
